A study of Mus musculus with 8 samples.

Results

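The 10 genes described here encode proteins that carry cholesterol into mitochondria, turn it into pregnenolone and modify the resulting steroids: *Star*, *Tspo*, *Cyp11a1*, *Fdx1*, *Fdxr*, *Srd5a1*, *Srd5a3*, *Akr1c14*, *Hsd11b1* and *Cyp7b1*. They were chosen by gene symbol from the 24527 rows of the deposited count table, and all 10 were found and passed the filter on low counts. RNA came from the hippocampus of 4 BPA-exposed and 4 control C57BL/6J wild-type males aged 20 weeks. BPA (bisphenol A) is a plastics monomer with weak hormonal activity. It was given in the mothers' low-phytoestrogen feed at 50 mg per kg of diet through pregnancy and suckling. The feed of control mothers held 0 mg per kg, and every mouse ate the control feed from weaning on postnatal day 21. The series' title asks about depressive-like behaviour and neuroactive steroids in exposed mice, and the comparison addressed whether transcripts of this pathway differed in adulthood.

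Neuroactive steroids are steroids that act on neurons, some of them made within the brain. Their synthesis starts in mitochondria, where the StAR protein delivers cholesterol to the side-chain cleavage enzyme CYP11A1, a cytochrome P450 that takes its electrons from ferredoxin (*Fdx1*) and ferredoxin reductase (*Fdxr*). Pregnenolone becomes progesterone through 3-beta-hydroxysteroid dehydrogenases. A 5-alpha-reductase (*Srd5a1*) and then a 3-alpha-hydroxysteroid dehydrogenase (*Akr1c14* in mouse) turn progesterone into allopregnanolone, a positive modulator of GABA-A receptors. *Hsd11b1* regenerates active corticosterone inside cells, and *Cyp7b1* adds a 7-alpha-hydroxyl group to oxysterols, pregnenolone and dehydroepiandrosterone.

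RefSeq (GRCm38.p6, the mm10 assembly) was the source of windows from 250 bases before to 50 bases after an annotated start, of which 8 windows were used, for 7 of the 10 genes. None was used for *Star*, *Tspo* and *Cyp7b1*. The windows below are shown for *Cyp11a1*, which opens the pathway and has 2 annotated starts 16928 bases apart, for *Srd5a1*, whose reads varied least between mice relative to counting error, and for *Hsd11b1*, whose reads varied most. Capitals mark matches, on either strand, to AGGTCA (the half-site of many nuclear receptors, including steroidogenic factor 1), TATAA (found in core promoters), GGGCGG (the GC box, bound by SP1) and CCAAT (bound by NF-Y). The windows are *Cyp11a1* upstream start at chr9:57997774-57998073 (+), *Cyp11a1* downstream start at chr9:58014702-58015001 (+), *Srd5a1* at chr13:69611414-69611713 (-) and *Hsd11b1* at chr1:193242311-193242610 (-), each written 5′ to 3′ on the strand of the gene.
Cyp11a1, upstream start: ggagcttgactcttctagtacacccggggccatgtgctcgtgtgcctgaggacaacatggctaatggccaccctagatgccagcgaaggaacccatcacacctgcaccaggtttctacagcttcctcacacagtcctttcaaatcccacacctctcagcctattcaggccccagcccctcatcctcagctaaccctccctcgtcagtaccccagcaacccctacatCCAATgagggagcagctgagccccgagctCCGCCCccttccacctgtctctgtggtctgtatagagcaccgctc
Cyp11a1, downstream start: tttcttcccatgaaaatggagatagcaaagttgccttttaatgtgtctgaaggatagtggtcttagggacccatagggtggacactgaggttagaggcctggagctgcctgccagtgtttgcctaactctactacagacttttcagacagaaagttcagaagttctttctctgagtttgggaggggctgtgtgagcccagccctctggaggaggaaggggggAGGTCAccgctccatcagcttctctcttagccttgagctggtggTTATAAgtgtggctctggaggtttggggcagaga
Srd5a1: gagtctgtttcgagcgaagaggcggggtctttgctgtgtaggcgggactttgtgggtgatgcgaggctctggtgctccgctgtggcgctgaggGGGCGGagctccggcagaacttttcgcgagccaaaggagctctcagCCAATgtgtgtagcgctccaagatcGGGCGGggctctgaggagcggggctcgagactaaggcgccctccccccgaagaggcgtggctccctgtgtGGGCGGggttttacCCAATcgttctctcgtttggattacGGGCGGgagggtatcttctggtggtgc
Hsd11b1: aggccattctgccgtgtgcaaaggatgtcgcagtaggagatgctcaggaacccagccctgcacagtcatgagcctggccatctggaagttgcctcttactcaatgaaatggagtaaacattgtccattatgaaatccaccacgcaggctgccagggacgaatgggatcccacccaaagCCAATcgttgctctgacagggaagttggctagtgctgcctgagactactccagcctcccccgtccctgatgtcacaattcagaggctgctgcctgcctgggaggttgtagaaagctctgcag

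The 2 *Cyp11a1* windows held different motifs. The downstream window had AGGTCA at -28 to -23, counted from the annotated start as 1 with no 0, and TATAA at 18 to 22, whose match on the other strand at 17 to 21 overlaps it. The upstream window had CCAAT at -24 to -20 and GGGCGG on the reverse strand at 6 to 11, and held neither AGGTCA nor TATAA. The *Srd5a1* window held 4 matches to GGGCGG and 2 to CCAAT, and the *Hsd11b1* window 1 match to CCAAT. Among the 8 windows, AGGTCA occurred in 1, TATAA in 2, GGGCGG in 5 and CCAAT in 5. Among all 32851 windows in the same table, the shares were 16.3%, 24.9%, 35.7% and 37.4% for these motifs in that order. The upstream *Cyp11a1* start in RefSeq lies outside the GENCODE span of the gene given with its values. Reads were counted per gene, so the counts do not show which *Cyp11a1* start was used.

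The libraries held 43.12 to 54.01 M reads (M, 1e+06) in BPA mice and 27.14 to 40.79 M in controls. The groups did not overlap, and depth and exposure cannot be told apart (p = 0.02857 in an exact permutation test, two-sided, which is as low as groups of this size allow). All 10 markers of hippocampal neurons were detected. Summed markers of choroid plexus, a neighbouring tissue, stood at 47.0 to 523 CPM in BPA mice and 78.2 to 2119 CPM in controls, where CPM is counts per 1e+06 reads after TMM scaling. Control replicate 2 was the highest of the controls and BPA replicate 3 the highest of the BPA mice. Meningeal fibroblast markers, 14 genes, summed to 132 to 310 CPM in BPA mice and 117 to 260 CPM in controls and were highest within each group in the same libraries. Of the 16 choroid plexus markers none was at 0 in every library. In bulk tissue, fewer cells of a type and less RNA per cell cannot be told apart.

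None of the 10 genes differed between BPA and control mice past the threshold. In edgeR's quasi-likelihood test over 15434 genes, 0 of the 10 had an adjusted p under 0.05 (Benjamini-Hochberg adjusted p 0.955 to 0.997), where 0% of all genes tested were called. None had an unadjusted p under 0.05 either (the lowest was 0.191, for *Fdx1*), where 4.52% of all genes tested did. DESeq2 and limma-voom also called 0 of the 10, with 0 at an unadjusted p under 0.05. Over all genes, DESeq2 called 7 of 20749, with 627 at an unadjusted p under 0.05. For limma-voom these numbers were 0 and 704 of 15434. The CPM of the groups overlapped for all 10, while 2.79% of all genes had groups that did not overlap. Estimates were below 0 for 8 of the 10 and above 0 for 2, with a median log2 fold change of -0.051, where 50.0% of all genes were below 0 (median 4.91e-05). With log2 library total as a covariate, 5 of the 10 were below 0, beside 7301 of all 15434 genes. Without control replicate 2 and BPA replicate 3, 6 of the 10 were below 0, beside 7810 of all 15412 genes. Among members not given with this setting further on, *Star* was then at 0.045, *Fdx1* at -0.26, *Fdxr* at -0.088, *Srd5a1* at -0.073, *Srd5a3* at 0.023 and *Hsd11b1* at -0.15 on the log2 scale. All but *Tspo*, 9 of the 10, had a 95% interval that stayed within 1.5-fold either way, as it did for 85.4% of all genes tested.

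**Figure D1:**
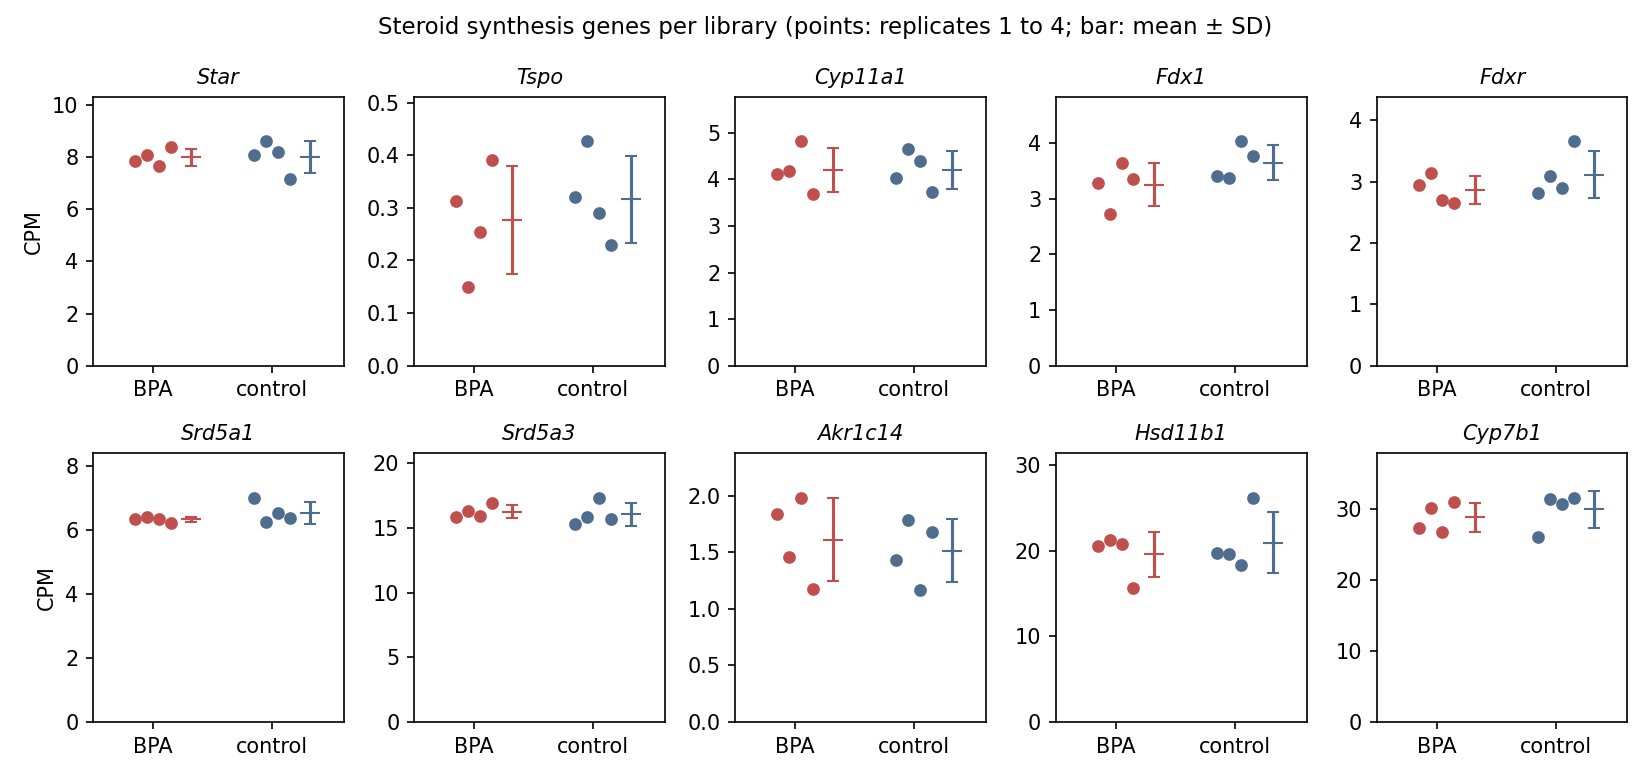
CPM of each of the 10 genes (vertical axis, from 0, with its own scale in each panel) in the 4 BPA and the 4 control libraries; points run from replicate 1 to 4 and the bar beside them is the mean ± SD. The groups overlap in every panel, and the points of *Srd5a1* in BPA mice lie closest together, between 6.22 and 6.42 CPM.

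For cholesterol import, *Star* was read at a low and even level and *Tspo* was close to the detection limit. *Star* (chromosome 8, 25806555 to 25815982, plus strand) encodes the carrier that moves cholesterol to the inner mitochondrial membrane. It stood at 7.85, 8.06, 7.65 and 8.39 CPM in BPA replicates 1 to 4, and at 8.08, 8.61, 8.20 and 7.16 CPM in control replicates 1 to 4. The BPA values lie within the control range. The fold was 0.995 (95% interval 0.886 to 1.12; log2 fold change -0.0075 ± 0.077, SE). *Tspo* (chromosome 15, 83563592 to 83574203, plus strand) encodes an outer mitochondrial membrane protein that binds cholesterol and is used as a marker of activated microglia. It had 14, 8, 11 and 17 reads in BPA replicates 1 to 4 and 13, 16, 9 and 6 reads in control replicates 1 to 4. That is 0.277 ± 0.102 CPM in BPA mice and 0.317 ± 0.0826 CPM in controls (SD, n = 4 each). The fold of 0.846 had an interval of 0.510 to 1.40, so a difference of 1.5-fold downward was not excluded at this depth. Its log2 fold change of -0.24 was -0.015 without BPA replicate 2, -0.065 without control replicate 2, -0.45 without BPA replicate 4 and -0.043 without control replicate 2 and BPA replicate 3. Exons of *Tspo*, 837 bases in length, share 53 bases with *Mcat* on the opposite strand, and reads from those 53 bases could belong to either gene. The 12 microglial markers summed to 246 to 271 CPM in BPA mice and 249 to 265 CPM in controls.

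For side-chain cleavage, *Cyp11a1* was read in every library. Its product makes pregnenolone from cholesterol, the step that commits cholesterol to steroid synthesis. *Cyp11a1* (chromosome 9, 58006411 to 58027023, plus strand) had 184, 224, 209 and 160 reads in BPA replicates 1 to 4 and 163, 175, 136 and 98 in control replicates 1 to 4. Scaled, these are 4.11, 4.18, 4.82 and 3.69 CPM in BPA mice and 4.03, 4.66, 4.39 and 3.73 CPM in controls. The group means were 4.20 ± 0.466 CPM in BPA mice and 4.20 ± 0.407 CPM in controls (SD, n = 4 each), a fold of 0.997 (95% interval 0.842 to 1.18). BPA replicate 3 and control replicate 2, the libraries with the highest choroid plexus and meningeal markers, also held the highest *Cyp11a1* value of their groups. Without both the log2 fold change was -0.023, against -0.0044 with all libraries. Whether these markers bear on the *Cyp11a1* level was not tested. Its exons share 145 bases with the long noncoding RNA *Gm17322* on the same strand.

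The electron donors of CYP11A1 were the members with the lowest estimates after *Tspo*. *Fdx1*, the iron-sulfur protein that hands electrons to mitochondrial P450s (chromosome 9, 51943306 to 51963556, minus strand), stood at 3.29, 2.73, 3.64 and 3.36 CPM in BPA replicates 1 to 4 and at 3.41, 3.38, 4.04 and 3.77 CPM in control replicates 1 to 4. BPA replicates 1, 2 and 4 lay below all controls and BPA replicate 3 lay among them. The fold was 0.892 (95% interval 0.746 to 1.07; log2 fold change -0.16 ± 0.12, SE; edgeR adjusted p 0.955). The estimate turned to 0.088 with log2 library total as a covariate and was -0.086 without BPA replicate 2, the deepest library. *Fdxr*, which reduces ferredoxin with electrons from NADPH (chromosome 11, 115268024 to 115277050, minus strand), stood at 2.95, 3.14, 2.70 and 2.65 CPM in BPA replicates 1 to 4. In control replicates 1 to 4 it stood at 2.82, 3.09, 2.91 and 3.66 CPM, of which the last is the highest of all 8. The fold was 0.922 (95% interval 0.769 to 1.11), and the log2 fold change of -0.12 was -0.038 without control replicate 4. Per kilobase of exon, *Fdx1* reads were 0.722 ± 0.133 times those of *Fdxr* in BPA mice and 0.742 ± 0.0986 times in controls (SD, n = 4 each), with ranges that overlap.

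The 5-alpha-reductases had the lowest coefficients of variation of CPM among the 10 genes in both groups, 1.302% and 3.13% in BPA mice and 5.12% and 5.59% in controls for *Srd5a1* and *Srd5a3* in that order. *Srd5a1*, the enzyme that reduces progesterone to dihydroprogesterone (chromosome 13, 69573449 to 69611442, minus strand), stood at 6.35, 6.42, 6.34 and 6.22 CPM in BPA replicates 1 to 4 and at 7.02, 6.26, 6.52 and 6.36 CPM in control replicates 1 to 4. Control replicate 1 was the highest and the BPA mice spanned a narrow range. The log2 fold change was -0.048 ± 0.075 (SE; fold interval 0.864 to 1.08), and -0.010 without control replicate 1. The gene overlaps *Nsun2* on the opposite strand, with 0 shared exon bases, and shares 476 exon bases with *Gm17108* on its own strand. *Srd5a3*, whose product makes dolichol for protein glycosylation and has also been assigned steroid 5-alpha-reductase activity (chromosome 5, 76140271 to 76155504, plus strand), stood at 15.8, 16.3, 15.9 and 16.9 CPM in BPA replicates 1 to 4. It stood at 15.3, 15.9, 17.3 and 15.7 CPM in control replicates 1 to 4. The fold was 1.01, with the narrowest interval of the 10 genes (0.928 to 1.11). Per kilobase of exon, *Srd5a3* was read 3.36 ± 0.138 times as much as *Srd5a1* in BPA mice and 3.22 ± 0.265 times as much in controls (SD, n = 4 each).

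*Akr1c14*, the 3-alpha-hydroxysteroid dehydrogenase that follows (chromosome 13, 4049011 to 4090688, plus strand), had few reads. It had 82, 78, 86 and 51 reads in BPA replicates 1 to 4 and 58, 67, 36 and 44 in control replicates 1 to 4. This is 1.83, 1.46, 1.98 and 1.18 CPM in BPA mice and 1.43, 1.79, 1.16 and 1.68 CPM in controls. Low and high libraries occurred in both groups, and the fold was 1.06 (95% interval 0.793 to 1.42; log2 fold change 0.088 ± 0.19, SE). The estimate ran from -0.025 without BPA replicate 3 to 0.21 without BPA replicate 4. BPA replicate 3 and control replicate 2 were the highest of their groups, as for choroid plexus markers, and without both the estimate was 0.070. The gene lies among closely related *Akr1c* genes and shares 234 exon bases with the pseudogene *Gm18857*, so the assignment of its reads is uncertain.

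The corticosteroid-activating enzyme *Hsd11b1* (chromosome 1, 193221634 to 193264075, minus strand) differed strongly between mice within each group. It stood at 20.6, 21.3, 20.8 and 15.6 CPM in BPA replicates 1 to 4 and at 19.7, 19.6, 18.3 and 26.2 CPM in control replicates 1 to 4. BPA replicate 4 was the lowest and control replicate 4 the highest of the 8, and the other 6 lay between 18.3 and 21.3 CPM. The log2 fold change was -0.092 ± 0.12 (SE; fold 0.938, 95% interval 0.787 to 1.12). Leaving out BPA replicate 4 gave 0.0020, and leaving out control replicate 4 gave 0.026. The 10 hippocampal neuron markers did not share one pattern over these libraries. BPA replicate 4 was the lowest of the 8 for 3 markers (*Neurod6*, *Bok* and *Slc17a7*) and the highest for 3 others (*Grik4*, *Zbtb20* and *Calb1*), while control replicate 4 was the highest for 3 (*Neurod6*, *Bok* and *Fibcd1*) and the lowest for 0. *Neurod6* and *Bok* were at both ends, as *Hsd11b1* was, with 276 CPM of *Neurod6* and 11.98 CPM of *Bok* in BPA replicate 4 and 374 CPM of *Neurod6* and 17.1 CPM of *Bok* in control replicate 4. *Grik4*, like *Bok* a marker of CA3 pyramidal neurons, ran otherwise, at 40.4 CPM in BPA replicate 4 and 38.7 CPM in control replicate 4. *Prox1*, a marker of granule cells, was at 127 CPM in BPA replicate 4 and 87.1 CPM in control replicate 4. Its lowest value was 85.0 CPM in control replicate 1, where *Hsd11b1* stood at 19.7 CPM. The sum of the 10 hippocampal neuron markers ran from 5467 to 5903 CPM in BPA mice and from 5194 to 5984 CPM in controls. Most of this sum was *Camk2a*, at 4090 to 4425 CPM in BPA mice and 3837 to 4492 CPM in controls. The markers named here were picked from that list after their values were seen, and their part in the *Hsd11b1* values was not tested. *Hsd11b1* overlaps *Lamb3* and *4930570N18Rik* on the opposite strand, with 0 shared exon bases.

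**Figure D2:**
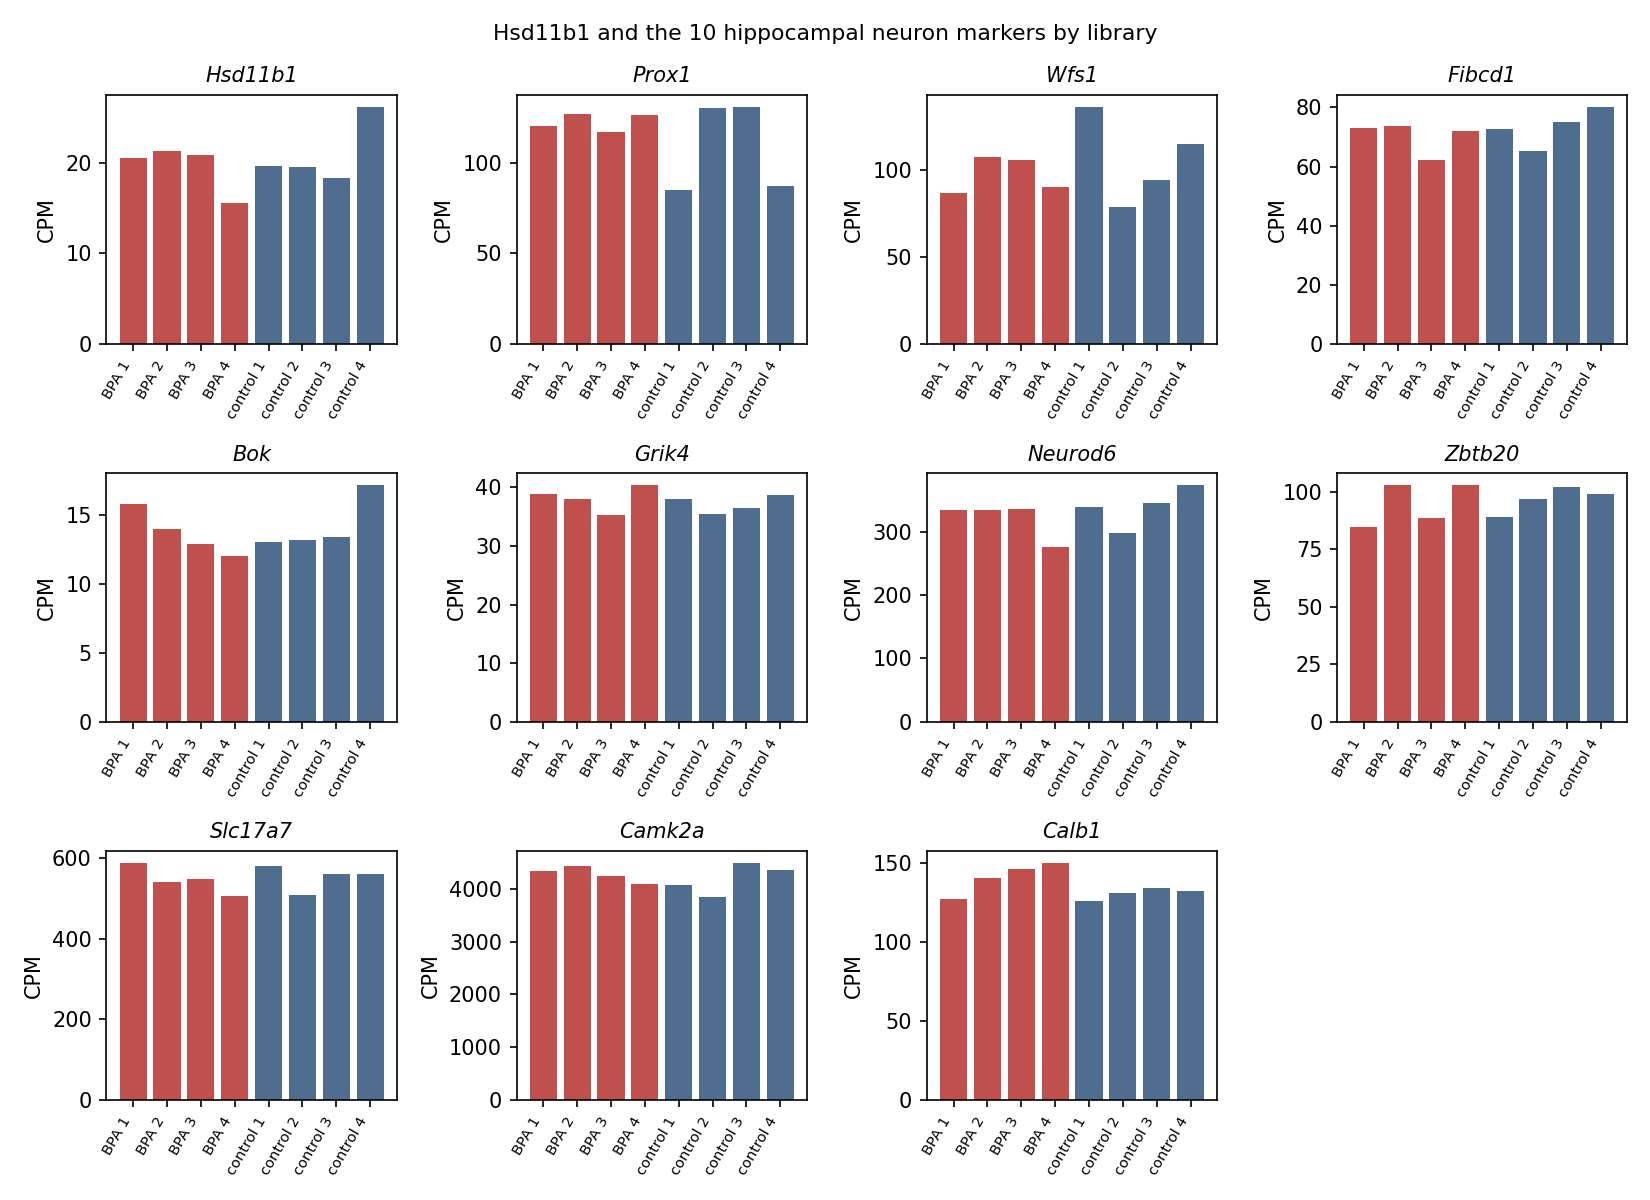
CPM (vertical axes, from 0) of *Hsd11b1* and of all 10 hippocampal neuron markers in each of the 8 libraries, BPA in red and control in blue. BPA replicate 4 is the lowest bar and control replicate 4 the highest for *Hsd11b1* and for 2 of the 10 markers, *Neurod6* and *Bok*, and BPA replicate 4 is the highest bar for *Grik4*, *Zbtb20* and *Calb1*.

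*Cyp7b1*, the 7-alpha-hydroxylase of oxysterols and neurosteroids (chromosome 3, 18071950 to 18243338, minus strand), was the most highly read member per length. It stood at 27.4, 30.1, 26.8 and 31.0 CPM in BPA replicates 1 to 4 and at 26.1, 31.4, 30.7 and 31.6 CPM in control replicates 1 to 4. Control replicate 1 stood below the other controls, and the BPA mice spread over the same range. The log2 fold change was -0.053 ± 0.071 (SE), a fold of 0.964 (95% interval 0.866 to 1.07). Without control replicate 1 the log2 fold change was -0.12 and did not pass the threshold (edgeR, adjusted p 0.983, unadjusted p 0.0900). It turned to 0.030 with log2 library total as a covariate, and to 0.0042 without control replicate 2 and BPA replicate 3.

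Per kilobase of exon the 10 genes spanned a wide range, given here as CPM per kb averaged over all 8 libraries. *Cyp7b1* was highest at 13.6, followed by *Hsd11b1* at 10.7 and *Srd5a3* at 8.00. *Srd5a1* (2.43), *Cyp11a1* (1.98) and *Star* (1.98) came next, then *Fdxr* (1.53), *Fdx1* (1.11), *Akr1c14* (0.491) and *Tspo* (0.355). The ranges over libraries overlapped for *Cyp7b1* (12.05 to 14.6) and *Hsd11b1* (8.26 to 13.9), for *Hsd11b1* and *Srd5a3* (7.58 to 8.59), for *Cyp11a1* and *Star*, for *Star* (1.77 to 2.13) and *Fdxr* (1.36 to 1.88), and for *Akr1c14* (0.365 to 0.623) and *Tspo* (0.178 to 0.509). The other neighbours in this order did not overlap. *Star* was read 1.01 ± 0.147 times as much per kilobase as *Cyp11a1* in BPA mice and 1.00 ± 0.0373 times as much in controls (SD, n = 4 each). The exon lengths came from GENCODE, not from the gene models the reads were counted on, so these ranks depend on that choice of length.

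The 10 genes also differed in how far mice of a group departed from counting error. The chi-square of reads within groups, per degree of freedom over 6 degrees, equals about 1 where counting alone sets the spread. It was under 2 for 7 of the 10, from 0.351 for *Srd5a1* and 0.950 for *Star* to 1.75 for *Cyp11a1*. It was 2.67 for *Akr1c14*, 7.60 for *Cyp7b1* and 16.6 for *Hsd11b1*. The coefficient of variation of *Hsd11b1* was 13.6% in BPA mice and 17.0% in controls, where counting error gives 3.36% and 3.81%. For *Srd5a1* it was 1.302% in BPA mice and 5.12% in controls, where counting error gives 5.86% and 6.81%. Chi-square grows with read number for the same biological spread, and *Hsd11b1* and *Cyp7b1* had the most reads of the 10 (6424 and 9362 over all libraries, against 94 to 5170 for the others).

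**Figure D3:**
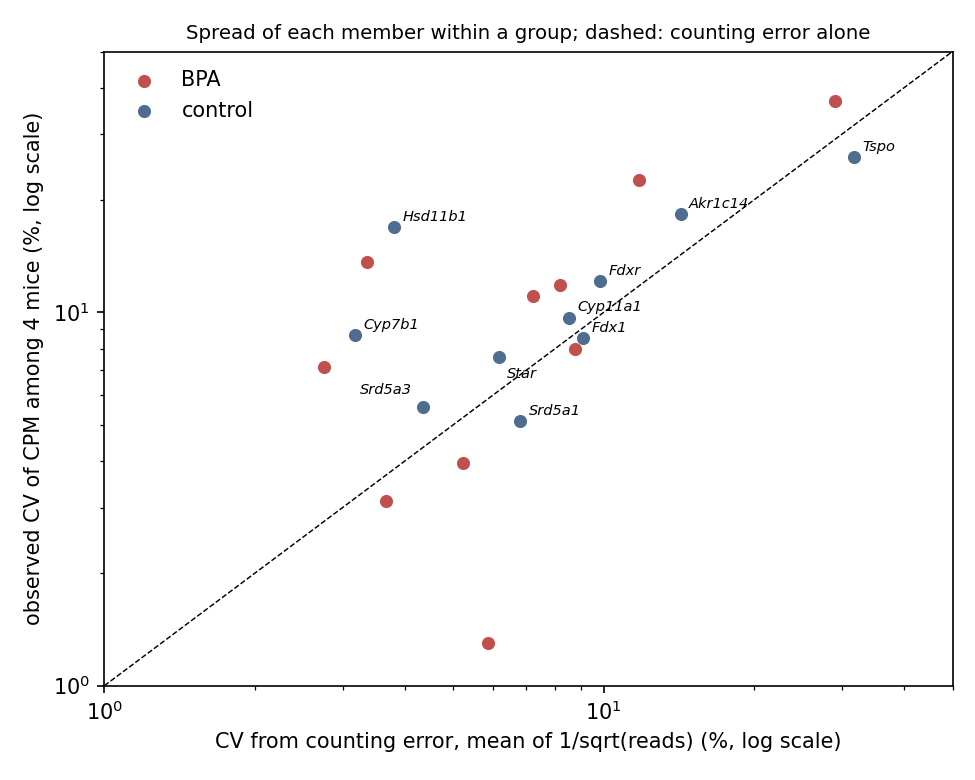
Observed coefficient of variation of CPM among the 4 mice of a group (vertical axis, %, log scale) against that expected from counting error alone (horizontal axis, %, log scale), with BPA in red and control in blue and the control point of each gene labelled. *Hsd11b1* and *Cyp7b1* lie well above the dashed line of equality in both groups, and *Srd5a1* lies below it.

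The rest of the pathway was described with 59 further genes, of which 58 had a row and 30 had enough reads to test. *Sts* was not analysed here. None of the 30 passed the threshold (edgeR, adjusted p 0.955 to 1.00, 0% called), 17 had estimates above 0 and 13 below, and the median log2 fold change was 0.035. An unadjusted p under 0.05 was reached by 2 of the 30, beside 4.52% of all genes tested. The other cholesterol carriers and binding proteins had 6 of 8 tested genes above 0. *Atad3a*, a mitochondrial membrane ATPase, was at 14.5 ± 0.634 CPM in BPA mice and 13.7 ± 0.580 CPM in controls (log2 fold change 0.087 ± 0.060, SE). *Acbd3*, a Golgi protein that binds TSPO, was at 62.8 ± 1.75 CPM in BPA mice and 65.3 ± 1.80 CPM in controls (-0.057 ± 0.042). These and the other group means are mean ± SD over 4 mice.

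Among the other electron donors and cofactor suppliers, 3 of 6 were above 0. *H6pd*, which supplies NADPH to the HSD11B1 enzyme inside the endoplasmic reticulum, was at 6.08 ± 0.222 CPM in BPA mice and 6.59 ± 0.513 CPM in controls (log2 fold change -0.12 ± 0.083, SE). Its estimate was -0.064 without control replicate 2, its highest library, -0.047 without control replicate 2 and BPA replicate 3, and -0.24 where the fit also held the library total. *Fdx1l*, the second mitochondrial ferredoxin (now *Fdx2*), was at 0.529 ± 0.113 CPM in BPA mice and 0.657 ± 0.164 CPM in controls (-0.30 ± 0.24), and its estimate ran from -0.44 to -0.19 on leaving out 1 mouse. Neither passed. *Hsd17b10*, a mitochondrial dehydrogenase, was at 12.5 ± 0.581 CPM in BPA mice and 11.7 ± 0.263 CPM in controls (0.087 ± 0.061). *Hsd17b7*, which acts in cholesterol synthesis and on oestrone, was at 21.1 ± 2.59 CPM in BPA mice and 22.4 ± 2.44 CPM in controls (-0.084 ± 0.093). Its estimate was -0.17 without control replicate 2 and BPA replicate 3 and ran from -0.14 to -0.019 on leaving out 1 mouse. *Sult1a1*, a sulfotransferase, was at 8.40 ± 1.07 CPM in BPA mice and 8.56 ± 0.749 CPM in controls, and *Sult2b1*, which sulfates cholesterol and pregnenolone, at 2.37 ± 0.132 CPM in BPA mice and 2.38 ± 0.0442 CPM in controls.

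The list of enzymes between pregnenolone and the sex and adrenal steroids had 19 genes, of which 7 were tested and 12 were too low to test. *Hsd17b12*, which also elongates fatty acids, stood at 29.6 CPM per kb in BPA mice and 30.4 CPM per kb in controls, above all 10 members. *Hsd17b4*, a peroxisomal enzyme of fatty acid oxidation, stood at 12.8 CPM per kb in BPA mice and 12.8 CPM per kb in controls. *Hsd17b11* was at 7.78 CPM per kb in BPA mice and 7.59 CPM per kb in controls, and *H2-Ke6* (*Hsd17b8*) at 8.50 CPM per kb in BPA mice and 8.30 CPM per kb in controls. These 4, described outside the rule for named genes, had fold intervals inside 1.5-fold, between 0.898 and 1.15. The 12 too low to test were *Hsd3b1*, *Hsd3b2*, *Hsd3b6*, *Cyp17a1*, *Cyp19a1*, *Cyp21a1*, *Cyp11b1*, *Cyp11b2*, *Hsd17b1*, *Hsd17b3*, *Hsd17b14* and *Hsd11b2*, with 0 to 48 reads each over all 8 libraries. Of the 3-beta-hydroxysteroid dehydrogenases, *Hsd3b3* was the highest per length (0.225 CPM per kb over all 8 libraries, from 118 reads), at 0.393 ± 0.0348 CPM in BPA mice and 0.332 ± 0.102 CPM in controls. *Cyp17a1*, which opens the way to androgens, had 4 reads in BPA mice and 3 in controls. *Cyp19a1*, the aromatase that makes oestradiol, had 22 reads in BPA mice and 16 in controls. *Cyp11b1*, which makes corticosterone in the adrenal, had 1 read in BPA mice and 0 in controls. *Cyp11b2* and *Hsd17b3* had 0 reads in every library. *Hsd11b2*, which inactivates corticosterone, had 12 reads in BPA mice and 11 in controls. Per kilobase of exon this was 0.0356 CPM in BPA mice and 0.0465 CPM in controls, where *Hsd11b1*, which works in the other direction, stood at 10.4 CPM in BPA mice and 11.1 CPM in controls.

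Of the other reductases and ketosteroid dehydrogenases, 9 of 10 were too low to test: *Srd5a2*, *Akr1c6*, *Akr1c12*, *Akr1c13*, *Akr1c19*, *Akr1c20*, *Akr1c21*, *Hsd17b6* and *Akr1d1*, with 0 to 28 reads each. *Srd5a2*, the reductase of the male genital tract, had 0 reads in BPA mice and 1 in controls. The exception was *Akr1c18*, which inactivates progesterone to its 20-alpha-hydroxy form, at 2.09 ± 0.253 CPM in BPA mice and 1.85 ± 0.207 CPM in controls (log2 fold change 0.18 ± 0.14, SE). Its estimate was 0.099 without BPA replicate 3, 0.11 without control replicate 2, 0.032 without both, and 0.31 where the fit held the library total. Per kilobase of exon it was read 3.55 ± 0.885 times as much as *Akr1c14* in BPA mice and 3.32 ± 0.722 times as much in controls (SD, n = 4 each). *Nr5a1*, which encodes steroidogenic factor 1, the regulator of adrenal and gonadal *Cyp11a1* and *Star*, had 0 reads in all 8 libraries. *Nr5a2* had 8 reads and *Nr0b1* 2 reads in all. *Tspo2*, *Sult1e1*, *Cyp7a1* and *Cyp8b1* were also too low, with 0 to 14 reads.

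**Figure D4:**
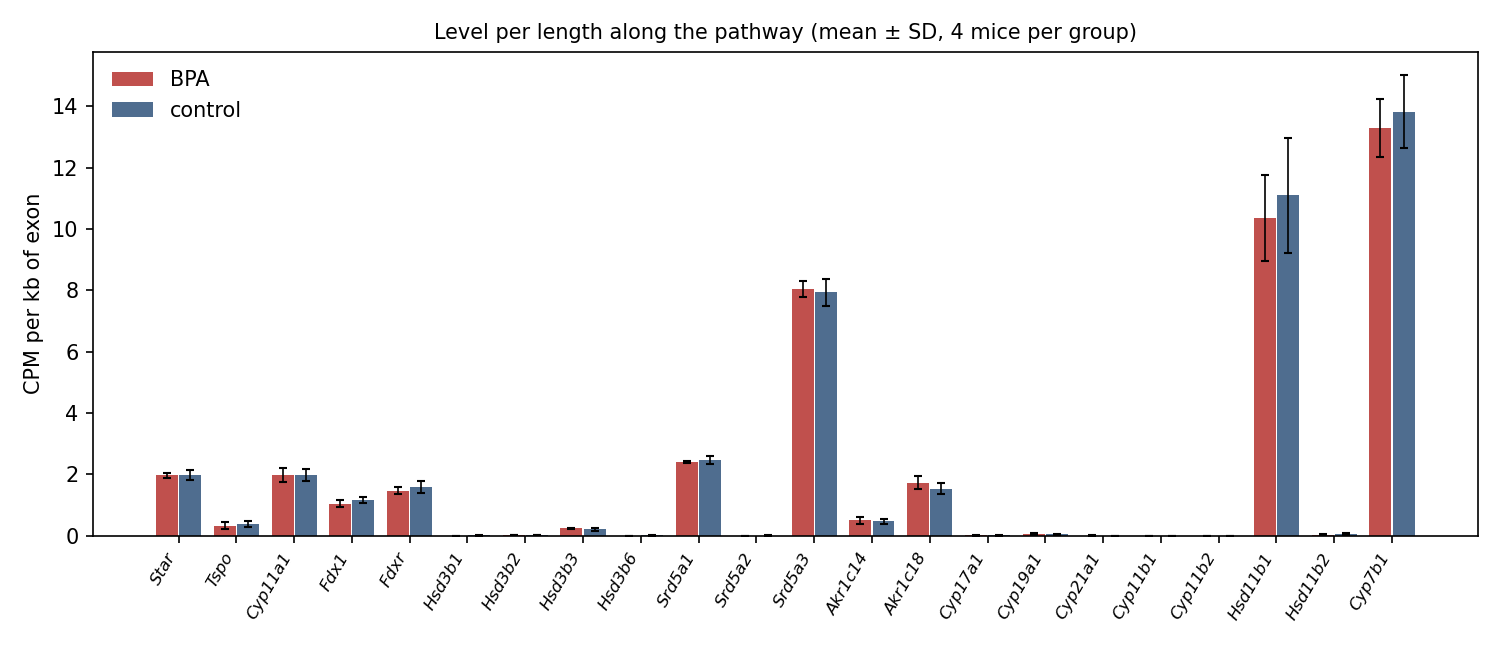
Level per length (CPM per kb of exon, linear axis from 0) along the pathway for the 10 genes and 12 others, with BPA bars left of control bars and error bars for the SD over 4 mice. *Star*, *Cyp11a1*, *Fdx1*, *Fdxr* and *Srd5a1* lie between 1.05 and 2.47, while the bars of *Cyp17a1*, *Cyp21a1*, *Cyp11b1* and *Cyp11b2* cannot be seen at this scale. The tested *Hsd17b* genes are not drawn.

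Among the tested genes of the pathway, members included, the estimates furthest from 0 on either side were those of *Ch25h* and *Cyp27a1*, enzymes that make substrates of CYP7B1. *Ch25h*, which makes 25-hydroxycholesterol, had 20, 27, 24 and 36 reads in BPA replicates 1 to 4 and 14, 8, 13 and 7 in control replicates 1 to 4. It was at 0.584 ± 0.170 CPM in BPA mice and 0.311 ± 0.0905 CPM in controls (SD, n = 4 each). Its groups did not overlap, which held for 2 of the 30 other pathway genes and for 2.79% of all genes tested. The log2 fold change of 0.90 ± 0.29 (SE) did not pass (edgeR adjusted p 0.955, unadjusted p 0.00925), and was 0.68 without BPA replicate 4. *Cyp27a1*, which makes 27-hydroxycholesterol in mitochondria with electrons from *Fdx1* and *Fdxr*, had 56, 47, 46 and 36 reads in BPA replicates 1 to 4 and 61, 69, 41 and 26 in control replicates 1 to 4. It was at 1.00 ± 0.193 CPM in BPA mice and 1.42 ± 0.354 CPM in controls, with groups that overlap. Its log2 fold change was -0.51 ± 0.21 (SE; edgeR adjusted p 0.955, unadjusted p 0.0296), and -0.36 without control replicate 2, its highest library (unadjusted p 0.115). *Cyp7b1* itself, given above, had an interval inside 1.5-fold.

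**Figure D5:**
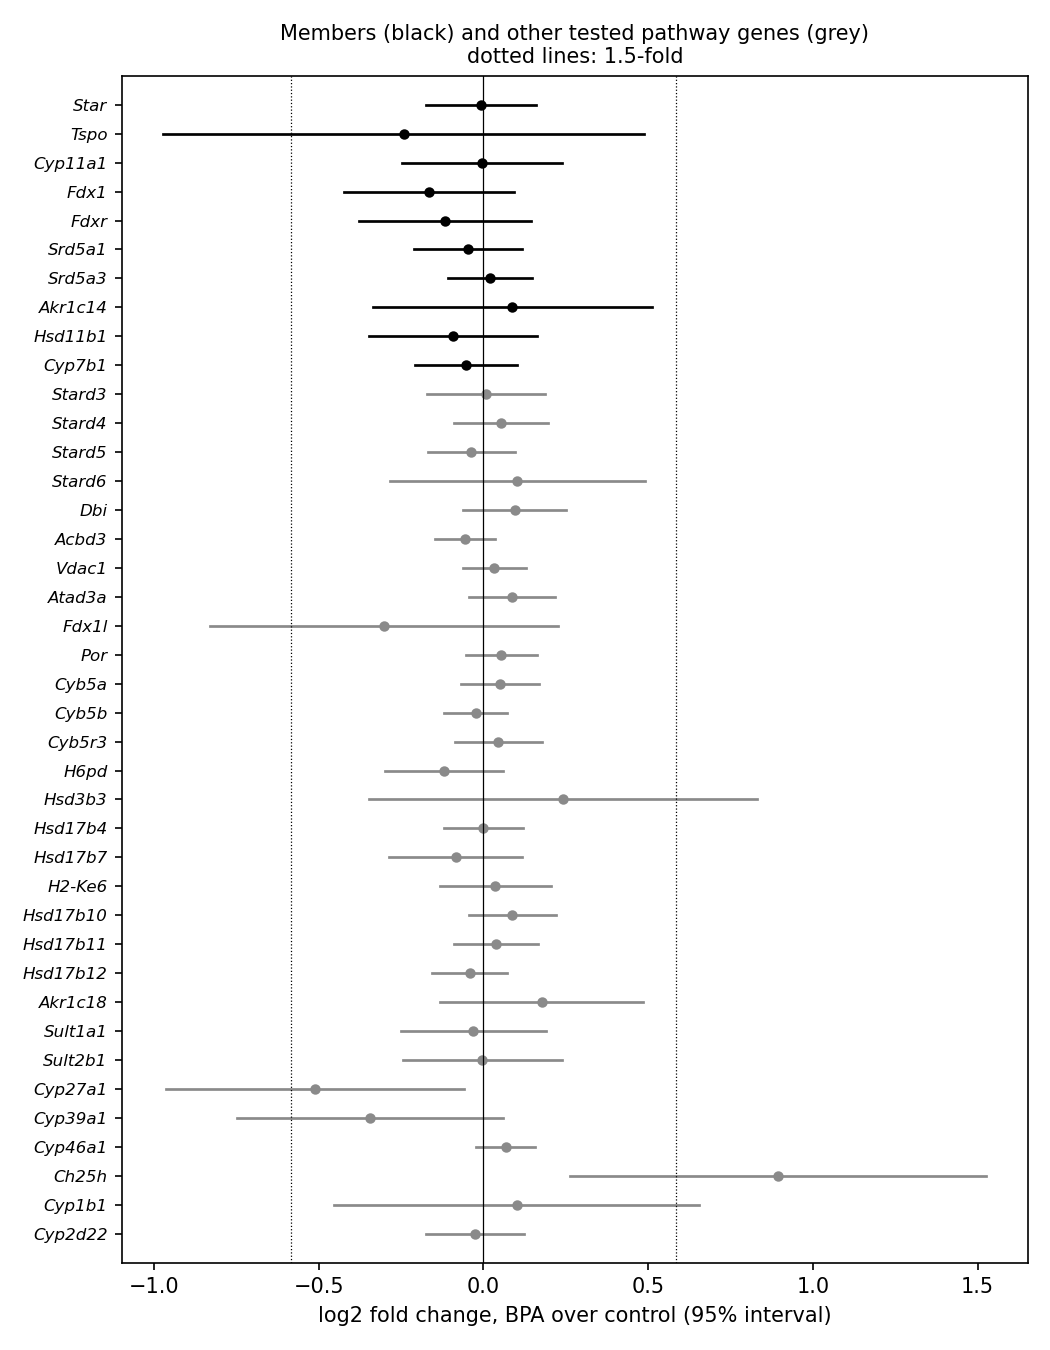
Log2 fold change of BPA over control (horizontal axis) with its 95% interval for the 10 genes in black and the 30 other tested genes of the pathway in grey; *H2-Ke6* is the row of *Hsd17b8*, and dotted lines mark 1.5-fold. The intervals of *Ch25h* and *Cyp27a1* exclude 0 before adjustment, and those of all 10 black genes include it.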

How the data were processed

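Poly(A)-selected RNA from 8 hippocampi was made into stranded libraries (ScriptSeq v2), per the labels' protocols. The authors deposited 1 table of raw, not normalized counts, with a row for each refGene symbol, per the file headers. Trimmomatic 0.32, STAR 2.3.0e, featureCounts 1.5.0, DESeq2 and the mm10 build are named, per the submitters' processing notes. Whether counting used strand was not stated in the labels, so reads from exon bases that genes share on opposite strands cannot be told apart. Columns were matched to samples by the library code in the titles. The design text calls the mice independent biological replicates but does not name litters, so p-values measure the spread between these mice.

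Genes were filtered with filterByExpr (minimum count 10), leaving 15434 of 24527, and 3750 rows had no read. The main test was edgeR's quasi-likelihood test (version 4.0.16, in R 4.3.3) on TMM-scaled counts with a term for exposure, and Benjamini-Hochberg adjustment at 0.05 over all tested genes. SEs were derived from the test statistic. Alternatives were DESeq2 1.42.0, RLE scaling, limma-voom 3.58.1, no filter, a replicate block, library total as a covariate, thinning, and leaving out libraries. The scripts were tested on simulated data. All 12 pairs of libraries within groups differed beyond sampling noise (chi-square divided by its degrees of freedom, 9.69 to 23.5), so none of these pairs were duplicates. Pairs of a BPA and a control library were not checked. The correlation of deviations between mice of the same number was -0.417 to 0.074, so pairing by number was not seen. A low correlation cannot exclude such pairing. Exon lengths (union over protein-coding transcripts of the basic set), positions and overlaps came from GENCODE M21 on mm10. *Fdx2* and *Hsd17b8* were matched as *Fdx1l* and *H2-Ke6* through RefSeq synonyms.

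The members, lists and tests were chosen with earlier results of these data known. All 10 members were named; of each further list, genes past the threshold or else the 2 tested with the smallest p, and all too low to test. *Hsd3b3* was named after its values were seen, as were the single markers of hippocampal neurons. Fold intervals came from the edgeR fit, as the SEs did, and are not limited to counting error.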

Additional observations from a re-analysis of the deposited data

Results flagged for a closer look

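Of 62 groups of 4 values examined, 5 held a mouse far from the others, where chance alone gives about 1 in 20. *Hsd11b1* was at 15.58 CPM in BPA replicate 4, against 20.6 to 21.3 CPM in the other BPA mice. *Cyp7b1* was at 26.09 CPM in control replicate 1, against 30.7 to 31.6 CPM in the other controls. Choroid plexus markers summed to 2119 CPM in control replicate 2, against 78.2 to 143 CPM in the other controls. Meningeal fibroblast markers summed to 309.8 CPM in BPA replicate 3, against 132 to 136 CPM in the other BPA mice. The library total of BPA replicate 2 was 54.01 M reads (M, 1e+06), against 43.12 to 44.0 M in the other BPA libraries. No cause was tested.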

How the results depend on the processing

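Of 159 values of the 10 genes under 16 alternatives, 140 kept their direction and 19 reversed, and none passed the threshold (adjusted p 0.772 to 1.00; lowest unadjusted p 0.0749, *Fdx1* without control replicate 2 and BPA replicate 3). *Tspo*, *Fdxr* and *Srd5a1* kept their direction under every alternative that gave them a value; *Tspo* had none after thinning, where it fell below the filter. With library total as a covariate, log2 fold changes reversed to 0.088 for *Fdx1*, 0.048 for *Hsd11b1*, 0.030 for *Cyp7b1*, 0.044 for *Hsd17b7*, 0.062 for *Sult1a1* and 0.033 for *Sult2b1*. Without control replicate 2 and BPA replicate 3, *Star* reversed to 0.045 and *Cyp7b1* to 0.0042, and *Sult1a1* and *Sult2b1* were at -0.086 and -0.048. Thinning reversed *Cyp11a1* to 0.019, and no filter reversed *Sult2b1* to 0.00015. The cause was not tested. Leaving out 1 mouse gave -0.055 to 0.028 for *Star*, -0.076 to 0.053 for *Cyp11a1*, -0.0029 to 0.059 for *Srd5a3*, -0.025 to 0.21 for *Akr1c14*, -0.15 to 0.026 for *Hsd11b1*, -0.12 to -0.020 for *Cyp7b1*, -0.083 to 0.048 for *Sult1a1* and -0.041 to 0.020 for *Sult2b1*.

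Over all genes, edgeR called 0 under every setting, limma-voom 0, and DESeq2 7, none in the pathway. Genes at an unadjusted p under 0.05 numbered 698, or 354 without BPA replicate 2 and 1167 without control replicate 3. For the 30 other pathway genes that number was 2, or 1 with library total as a covariate and 1 to 3 on leaving out 1 mouse. With no filter it was 4 of 53 pathway genes, beside 897 of all 20777 genes. The replicate block called 0 genes, left the members at -0.26 to 0.081, and 498 genes at an unadjusted p under 0.05; it changed no call. Depth limits *Tspo*, with 6 to 17 reads per library, and *Akr1c14*, with 36 to 86.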

Other observations

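*Hsd17b14*, a dehydrogenase too low to test, had 1, 0, 2 and 2 reads in BPA replicates 1 to 4 and 4, 3, 5 and 6 reads in control replicates 1 to 4, though the BPA libraries were deeper. The groups did not overlap, and the 2.79% share over tested genes does not cover genes this low. Without the filter, edgeR gave a log2 fold change of -2.19 with an unadjusted p of 0.00552 (adjusted p 0.891), and DESeq2 gave -2.33 with an unadjusted p of 0.0179 (adjusted p 0.999). It was singled out after its values were seen.

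*Cyp46a1*, the neuronal enzyme that turns cholesterol into 24-hydroxycholesterol, was at 59.9 ± 0.694 CPM in BPA mice and 57.2 ± 1.91 CPM in controls (SD, n = 4 each). The groups did not overlap, as for 2.79% of all genes tested, and the log2 fold change of 0.067 ± 0.041 (SE) did not pass (edgeR adjusted p 0.955, unadjusted p 0.127). *Cyp1b1*, which hydroxylates oestradiol, varied between mice, at 5.10 ± 1.92 CPM in BPA mice and 4.70 ± 1.46 CPM in controls, with a fold interval of 0.730 to 1.57. Both were singled out after their values were seen.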
